A study of Mus musculus with 12 samples.

Results

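The 7 genes described here encode the TREM receptor pathway of myeloid cells. They are the receptors Trem1, Trem2 and Trem3, the adaptors Tyrobp (DAP12) and Hcst (DAP10), the kinase Syk and the phospholipase Plcg2. They were picked by name, with earlier results of these libraries in view, from a table of 22935 genes, and each had 1 row. Their values are therefore given as a description, and where the calls of the fit across all genes are counted, nothing is read from them.

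The cells were BV2, an immortalised mouse line of microglia, the macrophages of the brain, and their messenger RNA was sequenced. All cells analysed had received 10 µM oxyhaemoglobin (oxy-Hb), the form of haemoglobin that enters the subarachnoid space when blood leaks there. Of 9 libraries, 3 came from oxy-Hb alone, 3 from oxy-Hb with C3a, the complement peptide that activates the receptor C3aR, and 3 from oxy-Hb with C3aRA, which the labels do not spell out. The labels give C3a at 20 ug/ul, a unit that would be very high for a peptide and is uncertain, and C3aRA at 50 µM. No exposure time is given. A further 3 samples in PBS were not analysed here, so no level without oxy-Hb can be set beside these. Nothing in the labels tells if replicates were grown as separate cultures, and the spread behind each p-value is that of these samples and may be technical.

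TREM receptors have short tails that cannot signal alone. They pair in the membrane with DAP12, whose tail carries an ITAM, a sequence with a pair of tyrosines that Src family kinases phosphorylate. SYK docks on the phosphorylated ITAM, and PLCG2, one of the enzymes below it, cleaves a membrane phosphoinositide to release calcium and diacylglycerol. DAP10 has no ITAM and recruits phosphoinositide 3-kinase through a YxxM sequence instead. In microglia TREM2 binds lipids and lipoproteins and supports survival and the uptake of myelin debris, while TREM1 amplifies inflammatory signals from other receptors. Genetic variants in the human counterparts of Trem2, Tyrobp and Plcg2 are linked to brain disease.

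The adaptor tails are shown first because they are what separates both adaptors. The coding sequences, read from the GENCODE transcripts of GRCm38, run 5′ to 3′ with the tyrosine codons in capitals. The Tyrobp stretch encodes residues 92 to 106 of 114, and the Hcst stretch residues 72 to 75 of 79.
Tyrobp ITAM: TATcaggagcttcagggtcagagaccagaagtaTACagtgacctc
Hcst YxxM: TACatcaacatg
Among the 7 coding sequences, the spacing of an ITAM (tyrosine, any 2 residues, leucine or isoleucine, 6 to 8 further residues, then the same again) was found only in Tyrobp. The letters YxxM were also met in Trem3, Syk and Plcg2, where a match of letters names no site.

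Trem1 and Trem2 are the members whose libraries with C3a all stood above those with C3aRA, and their start regions are shown for that reason. In that comparison the groups did not overlap, in either direction, for 28.8% of all 14146 tested genes. The sequences are from RefSeq (GRCm38.p6), on the + strand, and cover the 250 bases before the start site. Capitals mark GAGGAA or its reverse complement, the core bound by the myeloid factor PU.1.
Trem1 promoter, chr17:48232489-48232738: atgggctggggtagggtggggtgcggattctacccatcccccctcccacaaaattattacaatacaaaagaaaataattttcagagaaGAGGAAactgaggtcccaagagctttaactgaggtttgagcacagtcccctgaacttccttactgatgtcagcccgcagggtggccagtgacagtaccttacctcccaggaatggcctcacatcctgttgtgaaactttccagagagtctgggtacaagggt
Trem2 promoter, chr17:48346151-48346400: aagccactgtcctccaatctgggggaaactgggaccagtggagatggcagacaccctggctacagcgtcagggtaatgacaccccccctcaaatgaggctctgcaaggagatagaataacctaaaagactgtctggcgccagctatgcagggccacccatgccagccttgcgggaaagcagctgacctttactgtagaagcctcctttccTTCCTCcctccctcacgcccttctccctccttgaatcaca
Each window holds GAGGAA 1 time, as do 23.3% of 32851 RefSeq windows of this length at least 1 time, both strands counted. Trem2 also has 1 match to TGANTCA, a looser form of the AP-1 letters (6.7% of windows), and Trem1 has none. The N of that match is A, so it is not counted as an AP-1 site. CACGTG, an E-box read by TFEB and related factors (6.0% of windows), and TGACNNNGC, the core read by NRF2 (10.2%), were found in neither. These matches describe letters only. RefSeq windows were also matched for Hcst, Syk and Plcg2. The Syk window at chr13:52596632-52596881 held GAGGAA 1 time and the Plcg2 window held CACGTG 1 time. No other match was found in these windows, and Tyrobp and Trem3 had no RefSeq window.

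All 7 genes lie where the tables and GENCODE (GRCm38) give the same coordinates. Trem1 (ENSMUSG00000042265, chr17:48232768-48246924, + strand), Trem3 (ENSMUSG00000041754, chr17:48247777-48258841, + strand) and Trem2 (ENSMUSG00000023992, chr17:48346401-48354147, + strand) lie in one cluster, with 852 bases between Trem1 and Trem3 and 87559 bases between Trem3 and Trem2. Both adaptors are neighbours that face each other tail to tail. Tyrobp (ENSMUSG00000030579, chr7:30413760-30417585, + strand) ends 126 bases before Hcst (ENSMUSG00000064109, chr7:30417712-30419854, - strand). Syk (ENSMUSG00000021457) spans chr13:52583173-52648792 and Plcg2 (ENSMUSG00000034330) chr8:117498291-117635142, both on the + strand. No annotated exon of another gene overlapped an exon of these 7, although 1 annotated gene overlaps the body of Trem1 and 1 that of Plcg2.

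The libraries held 12934794 to 20479002 counts, at which 3 counts equal 0.146 to 0.232 CPM (reads scaled to the library total), a floor for counting error only. C3a replicate 2 stood apart, with a first principal component score of 76.3 against -23.8 to 10.8 in the other 8 libraries. Its short transcripts were high and its long ones low relative to C3a replicates 1 and 3. The median log2 difference was 0.43 for tested genes with longest transcripts of 700 to under 1000 bases and -0.65 for those of 7000 bases or more. Values that rest on this library are given with and without it. All 10 microglial markers averaged over 1 CPM and summed to 1559 to 1774 CPM (marker sums are not TMM-scaled), led by Cd68. The lowest of that list, picked out after their values were seen, were Aif1 (IBA1) at 2.03 CPM and the homeostatic markers P2ry12 and Tmem119 at 1.86 and 1.79 CPM.

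Neutrophils and osteoclasts, which also use TREM receptors and DAP12, were checked by their markers. Of 11 neutrophil markers 7 had a row, 3 averaged over 1 CPM, led by Csf3r at 13.4 CPM, and Mpo was at 0 in all libraries, which allows up to 0.146 to 0.232 CPM. Their sums were 17.6 to 20.5 CPM with oxy-Hb, 17.0 to 18.6 CPM with C3a and 12.5 to 19.1 CPM with C3aRA. S100a8, picked out after its values were seen, lay at 0.251 to 0.687 CPM with oxy-Hb, 1.78 to 3.28 CPM with C3a and 0.462 to 1.51 CPM with C3aRA, while Csf3r averaged 15.6, 12.7 and 11.8 CPM. Osteoclast markers summed to 179 to 206 CPM with oxy-Hb, 219 to 307 CPM with C3a and 172 to 192 CPM with C3aRA. Their sum thus stood higher with C3a as some of the 7 genes did, and their part in those values was not tested. The largest part of the sum was Ctsk, which averaged 126, 193 and 135 CPM in the same order and reached 267 CPM in C3a replicate 2. Of these 6 markers 5 had a row and 4 averaged over 1 CPM, with Ctsk in the lead at 152 CPM. Acp5, the acid phosphatase that defines osteoclasts, was picked out after its values were seen and reached at most 0.377 CPM. T and NK cell markers (2 of 10 with a row) summed to at most 0.235 CPM, mast cell markers (1 of 6) to 1.11 CPM, astrocyte markers (1 of 6) to 0.698 CPM, red cell markers (2 of 6) to 1.62 CPM, neuronal markers (2 of 6) to 4.03 CPM and oligodendrocyte markers (2 of 6) to 12.04 CPM.

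Trem1, the receptor that amplifies inflammatory signals, had the largest fold change of the 7 genes in each of the 3 comparisons. With oxy-Hb alone its level was 9.79, 7.71 and 9.88 CPM (scaled by TMM, as are all CPM of single genes here). With C3a it was 13.3, 12.5 and 13.3 CPM. With C3aRA it was 6.44, 6.34 and 5.95 CPM. No group overlapped another, with C3a above oxy-Hb and oxy-Hb above C3aRA in every library. The means were 9.13 ± 1.23, 13.0 ± 0.421 and 6.24 ± 0.261 CPM (SD, n = 3). These levels rest on 82 to 241 reads a library. The log2 fold change from the fit was 0.51 ± 0.17 (SE) for C3a against oxy-Hb, -0.55 ± 0.18 for C3aRA against oxy-Hb and 1.06 ± 0.18 for C3a against C3aRA, the last a ratio of 2.09. Both comparisons with oxy-Hb use the same 3 oxy-Hb libraries. Over 21 other settings, leaving out each library included, the difference between C3a and C3aRA stayed between 1.01 and 1.09. Without C3a replicate 2 it was 1.08. In bulk RNA a change in the share of cells that express a gene cannot be told apart from a change in RNA per cell.

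Trem2, the lipid receptor, differed less between groups. Its level was 137, 149.6 and 141 CPM with oxy-Hb, 159, 223 and 178 CPM with C3a and 127, 140.2 and 147 CPM with C3aRA. The C3a libraries lay above the 6 others, whereas oxy-Hb and C3aRA overlapped. Means were 142 ± 6.41, 187 ± 32.8 and 138 ± 9.79 CPM (SD, n = 3), and C3a replicate 2 was the highest of all. The log2 fold change was 0.39 ± 0.12 (SE) for C3a against oxy-Hb, -0.05 ± 0.12 for C3aRA against oxy-Hb and 0.44 ± 0.12 for C3a against C3aRA. Without C3a replicate 2, the values with C3a were 0.24 and 0.28.

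Trem3, an activating receptor of rodents that also pairs with DAP12, stood at 18.5, 24.6 and 19.7 CPM with oxy-Hb. With C3a the values were 17.9, 35.9 and 21.8 CPM, and with C3aRA 19.7, 18.5 and 19.5 CPM. All groups overlapped, and only C3a replicate 2 exceeded the highest oxy-Hb library. The log2 fold change for C3a against oxy-Hb was 0.27 ± 0.21 (SE) with that library and -0.08 without it. Against C3aRA it was 0.39 ± 0.21 and 0.04. C3aRA against oxy-Hb gave -0.12 ± 0.22.

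Tyrobp, the adaptor of all 3 receptors, stood at 152, 183 and 142 CPM with oxy-Hb, at 159.5, 291 and 165 CPM with C3a and at 150.4, 167 and 161 CPM with C3aRA. The groups overlapped, and the mean of 205 ± 74.1 CPM (SD, n = 3) with C3a rests on replicate 2, against 159 ± 21.4 and 159 ± 8.59 CPM with oxy-Hb and C3aRA. Its log2 fold change for C3a against oxy-Hb was 0.37 ± 0.19 (SE), and 0.03 without that library. Against C3aRA it was 0.36 ± 0.19, and 0.02 without it. C3aRA against oxy-Hb gave 0.01 ± 0.19.

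Hcst, the adaptor with the YxxM tail, was the least counted member at 60 to 157 reads. Its level was 4.65, 4.02 and 6.65 CPM with oxy-Hb, 4.44, 8.17 and 4.43 CPM with C3a and 4.95, 3.77 and 4.04 CPM with C3aRA. The groups overlapped, and again only C3a replicate 2 exceeded the oxy-Hb libraries. The log2 fold changes were 0.16 ± 0.29 (SE) for C3a against oxy-Hb, -0.26 ± 0.30 for C3aRA against oxy-Hb and 0.42 ± 0.30 for C3a against C3aRA. Without C3a replicate 2 those with C3a were -0.21 and 0.06, the first with its sign turned.

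Syk, the kinase that docks on the ITAM, stood at 86.1, 77.6 and 87.7 CPM with oxy-Hb, 89.6, 65.7 and 80.3 CPM with C3a and 89.6, 81.8 and 94.8 CPM with C3aRA. The groups overlapped, and C3a replicate 2 was here the lowest library. The log2 fold changes were -0.09 ± 0.12 (SE), 0.08 ± 0.12 and -0.18 ± 0.12 for C3a against oxy-Hb, C3aRA against oxy-Hb and C3a against C3aRA. Without C3a replicate 2 the first was 0.02 and the last -0.07. The first was 0.17 once transcript length and GC content had been corrected for.

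Plcg2, the phospholipase below SYK, stood at 247, 228 and 221 CPM with oxy-Hb, 242, 188 and 200.2 CPM with C3a and 265, 232 and 265 CPM with C3aRA. The groups overlapped, again with C3a replicate 2 lowest. The log2 fold changes were -0.14 ± 0.11 (SE), 0.13 ± 0.11 and -0.27 ± 0.11 in the same order. Without C3a replicate 2 the values with C3a were -0.07 and -0.20, and the first was 0.06 after the length and GC correction.

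**Figure D1:**
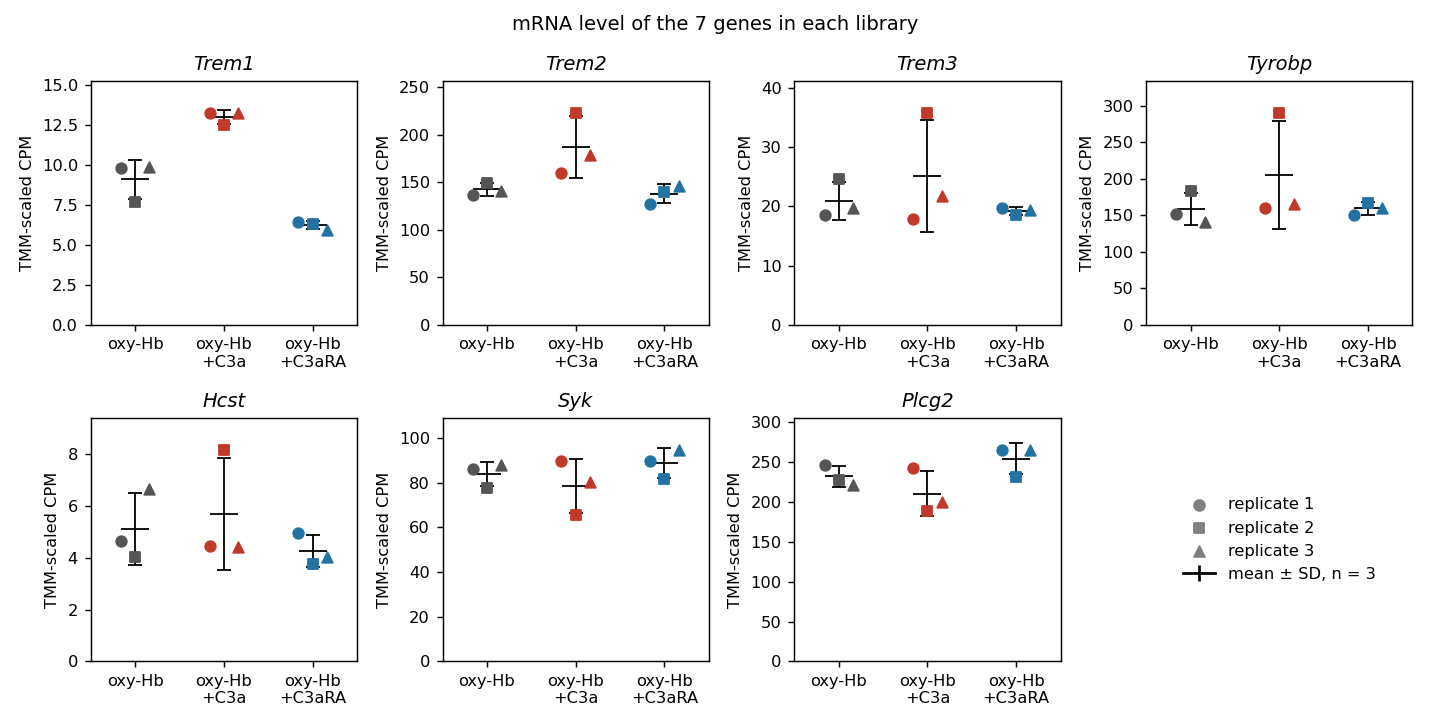
Level of each of the 7 genes in the 9 libraries (TMM-scaled CPM, axes from 0), with marker shapes for replicates and a bar for the mean and SD of 3 libraries. Trem1 separates all groups, with 12.5 to 13.3 CPM under C3a and 5.95 to 6.44 CPM under C3aRA, and C3a replicate 2 is the highest square for Trem2, Trem3, Tyrobp and Hcst and the lowest for Syk and Plcg2.

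Counted over the 7 genes, groups did not overlap for 2 of 7 (Trem1 and Trem2) with C3a against oxy-Hb, where 27.8% of all 14146 tested genes did not overlap. With C3aRA against oxy-Hb it was 1 of 7 (Trem1), against 22.9% of all tested genes. With C3a against C3aRA it was again Trem1 and Trem2, against 28.8% of all. All 7 passed the filter on low counts. At an adjusted p below 0.05 in edgeR's quasi-likelihood test, 0 of 7 were called with C3a against oxy-Hb. Of all tested genes 3.94% were called there, 0.905% higher and 3.04% lower. At an unadjusted p below 0.05 it was 2 of 7, beside 3411 of all 14146 tested genes. DESeq2 called 2 of 7 (Trem1 and Trem2), beside 1353 of the 14146. With C3aRA against oxy-Hb 0 of 7 were called (1 at an unadjusted p below 0.05, 0 in DESeq2), where 0% of all tested genes were. There 1153 of the 14146 had an unadjusted p below 0.05 in edgeR, and DESeq2 called 11. With C3a against C3aRA Trem1 and Trem2 were called, where 6.19% of all were, 2.87% higher with C3a and 3.32% lower. These comparisons guided the choice of genes, so the counts support nothing. Under other settings Trem2 was called with C3a against oxy-Hb with no count filter, beside 1033 of 22537 tested genes. It was also called without C3a replicate 1 (0.51), beside 1638 of 14610. The same held in all 3 fits corrected for length and GC content (0.54 with that correction alone, beside 758 of 14146 tested genes). Those fits called 1277 of 14613 without C3a replicate 2 and 1094 of 14146 with the replicate number as a block. Against C3aRA the call of Trem1 did not change under the 21 other settings. These refit the same libraries, so that supports nothing either. Trem2 was not called against C3aRA with total count scaling, with limma-voom or with both groups fitted alone. Calls over all tested genes were 713, 791 and 118 there, against 876 as reported. Nor was it called without any 1 of oxy-Hb replicates 1, 2 and 3, C3a replicate 3 and C3aRA replicates 1, 2 and 3. Those fits gave 53 to 575 calls over all tested genes. Log2 fold changes of Trem2 over all settings were 0.28 to 0.56. Without C3a replicate 1 Plcg2 was called as well (-0.38), beside 1670 of 14610 tested genes.

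The authors' deposited tables list 2.21% of 22935 genes at an adjusted p below 0.05 for C3a against oxy-Hb and 3.12% for C3aRA against oxy-Hb, none of the 7 among them. In the authors' deposited tables Trem1 had a log2 fold change of 0.52 with C3a (adjusted p = 0.161) and -0.54 with C3aRA (adjusted p = 0.137). The lowest adjusted p of the 7 with C3a was that of Trem2 in the authors' deposited table (0.132, log2 fold change 0.40).

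The median log2 fold change of the 7 genes was 0.27 for C3a against oxy-Hb, beside 0.00 for all tested genes, and 0.02 without C3a replicate 2. For C3a against C3aRA it was 0.39, beside 0.01, and 0.04 without that library. For C3aRA against oxy-Hb it was -0.05, beside -0.01. The receptors and adaptors were positive and Syk and Plcg2 negative in both comparisons with C3a in the fit of 9 libraries. Trem3 and Hcst turned negative against oxy-Hb without C3a replicate 2, Syk turned positive there, and after the length and GC correction Syk was positive in both comparisons and Plcg2 in that with oxy-Hb.

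**Figure D2:**
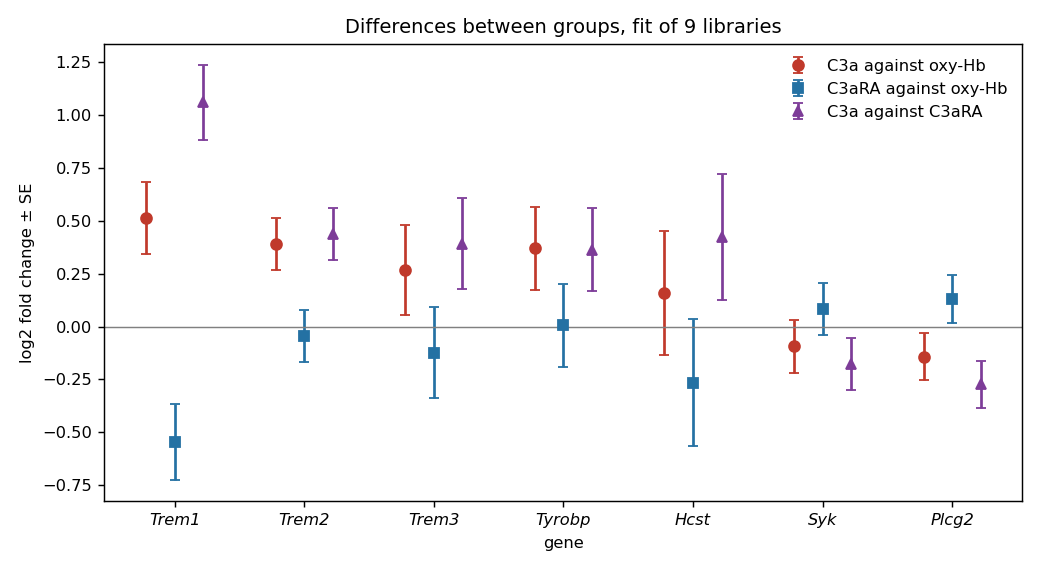
Log2 fold change of each gene in the 3 comparisons, from 1 fit of 9 libraries, with bars of 1 SE. Trem1 lies at 0.51, -0.55 and 1.06, while the other 6 genes lie between -0.26 and 0.13 for C3aRA against oxy-Hb.

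Transcript length and the deviation of C3a replicate 2 went together among the 7 genes. The level of this library minus the mean of C3a replicates 1 and 3 was 0.86 on the log2 scale for Hcst (442 bases), 0.84 for Tyrobp (564), 0.86 for Trem3 (994) and 0.40 for Trem2 (1088). It was -0.08 for Trem1 (2993 bases), -0.23 for Plcg2 (4298) and -0.37 for Syk (5363). Among all tested genes the quartiles of this difference were -0.49 and 0.77 below 700 bases and -0.08 and 0.72 from 700 to under 1000 bases, so Hcst, Tyrobp and Trem3 lay above the upper quartile of their class. Trem2, Trem1, Plcg2 and Syk lay between the quartiles of theirs (-0.15 and 0.56, -0.18 and 0.34, -0.38 and 0.09, and -0.58 and -0.09). The 7 genes were placed by their longest basic protein-coding transcript, whereas the classes were formed by each gene's longest transcript of any type. A member's class could therefore differ on that measure, and Trem3 and Trem1 lie close to a class edge. How far this library's deviation is a matter of transcript length was not tested.

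**Figure D3:**
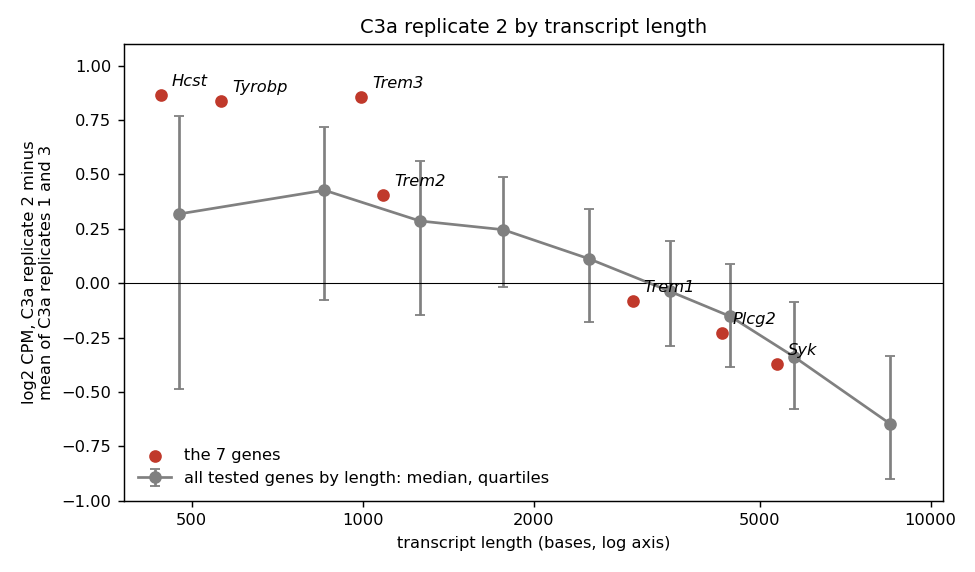
Log2 CPM of C3a replicate 2 minus the mean of C3a replicates 1 and 3, against transcript length on a log axis. Red points are the 7 genes at their longest basic protein-coding transcript, and grey points and bars are the median and quartiles of all tested genes binned by longest transcript, which run from 0.32 in the shortest bin to -0.65 in the longest.

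Ratios of counts within a library do not depend on scaling. For each 100 Trem2 reads there were 7.14, 5.16 and 7.02 Trem1 reads with oxy-Hb, 8.32, 5.62 and 7.45 with C3a and 5.06, 4.52 and 4.06 with C3aRA. Every C3aRA library lay below every other, the nearest pair being 5.06 and 5.16, while oxy-Hb and C3a overlapped. For each 100 Trem3 reads there were 52.9, 31.4 and 50.2 Trem1 reads with oxy-Hb and 74.2, 35.0 and 60.8 with C3a. With C3aRA there were 32.7, 34.2 and 30.6, and the lowest oxy-Hb library lay within that range. Here too only C3a replicate 2 reached into the oxy-Hb range. Trem1 has the longer transcript in both ratios, and the part of length in this library's ratios was not tested. The adaptor kept closer to its receptor. For each 100 Trem2 reads there were 111, 122 and 101 Tyrobp reads with oxy-Hb, 100.1, 130.3 and 92.7 with C3a and 118, 119 and 109.6 with C3aRA, with all groups overlapping. Syk reads ran from 33.8 to 40.1 for each 100 Plcg2 reads over the 9 libraries, and Hcst reads from 2.20 to 4.70 for each 100 Tyrobp reads. Tyrobp against Syk, a short transcript against a long one, ran from 161 to 236 for each 100 in 8 libraries and was 443 in C3a replicate 2.

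**Figure D4:**
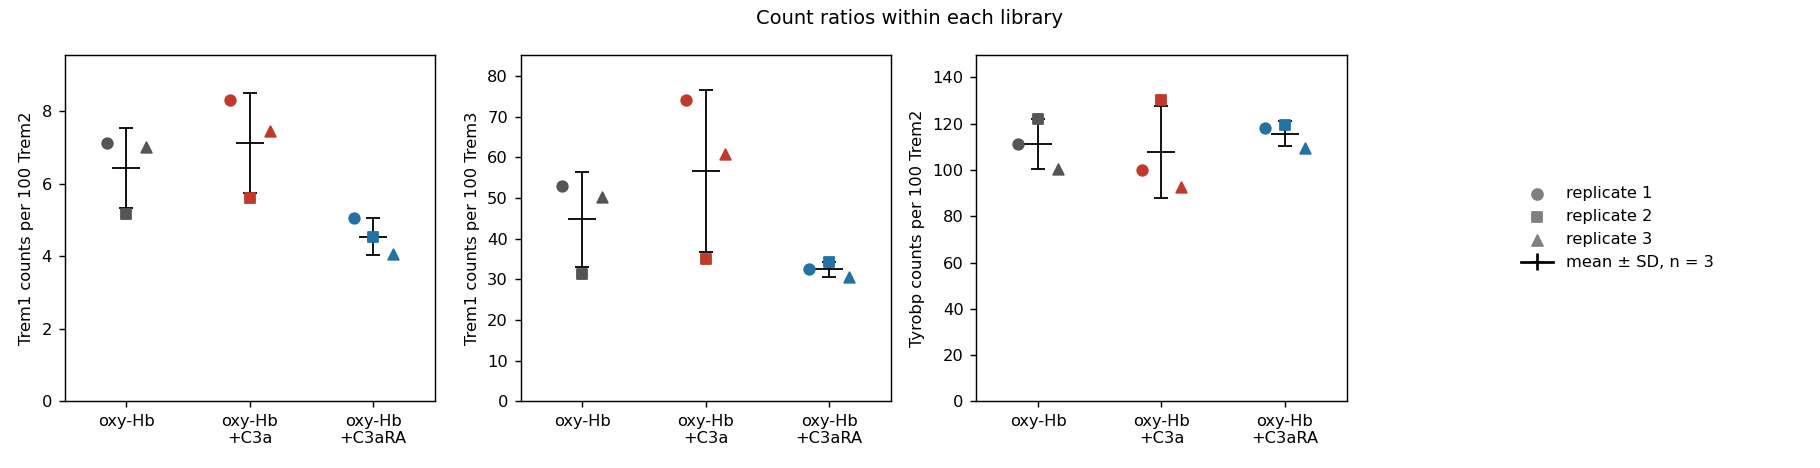
Trem1 reads for each 100 Trem2 reads, Trem1 reads for each 100 Trem3 reads and Tyrobp reads for each 100 Trem2 reads, by library, with a bar for the mean and SD of 3 libraries and axes from 0. The C3aRA libraries are lowest in the first panel, at 4.06 to 5.06, and the groups overlap in the third.

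Levels of different genes were compared per kilobase of transcript. In CPM per kilobase with oxy-Hb alone, the order was Tyrobp (282 ± 37.9; SD, n = 3), Trem2 (131 ± 5.89), Plcg2 (53.9 ± 3.10), Trem3 (21.1 ± 3.23), Syk (15.6 ± 1.02), Hcst (11.5 ± 3.11) and Trem1 (3.05 ± 0.409). The adaptor transcript was thus the most abundant of the 7 per length and the TREM1 transcript the least. Over all 9 libraries the ranges of neighbours in this order did not overlap, except those of Syk (12.2 to 17.7) and Hcst (8.53 to 18.5), the latter reaching into the range of Trem3 (18.0 to 36.1). Trem1 ran from 1.99 to 4.44 CPM per kilobase. Each gene's length is that of its longest basic protein-coding transcript, and a shorter main isoform would raise its value.

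Genes most like each member over the 9 libraries were named by Pearson's r of log2 CPM among 10102 genes, as a description, since all points share library, depth and groups. For Trem1 they were Irgm1, an interferon-inducible GTPase (0.968), Rnft1 (0.952) and Timm29 (0.952), and over the 8 libraries without C3a replicate 2 Trim21 (0.986), Rufy2 (0.979) and Cysltr1 (0.972). Trem2 was most like Gpx1, glutathione peroxidase (0.993), Lsm1 (0.990) and Cmc1 (0.989), and over 8 libraries Gpx1 (0.986), Nolc1 (0.982) and Lsm1 (0.981). Tyrobp was most like Aprt (0.993) and the ribosomal protein genes Rpl18 and Rplp0 (both 0.992), and over 8 libraries Ptges2 (0.978), Aprt (0.966) and Rpl18 (0.942). For Syk the closest were Dyrk1a (0.976), Tbc1d1 (0.967) and Chd4 (0.960), and over 8 libraries Erich1 (0.959), Tbc1d1 (0.954) and Ifi211 (0.950). For Plcg2 they were Golga2 (0.987), Tap1 (0.981) and Rab11fip5 (0.970), and over 8 libraries Mapkapk2 (0.987), Gnptab (0.982) and Epb41l1 (0.978). Trem3 was closest to Lst1 (0.969), Ndufc2 (0.965) and Ndufb7 (0.964), and over 8 libraries Lsm10 (0.948), Bola1 (0.918) and Gm10039 (0.906). Hcst was closest to Mir22hg (0.940), Ggact (0.927) and Gucd1 (0.922), and over 8 libraries Gas2l3 (0.944), Tnrc6b (0.907) and Zfp770 (0.900). No gene was shared between both sets for Trem1, Trem3, Hcst and Plcg2.

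The rest of the pathway was taken from lists of 148 further genes, of which 137 had a row and 124 were tested. With C3a against oxy-Hb 7 of the 124 (5.65%) changed in edgeR's quasi-likelihood test, beside 3.94% of all tested genes, 3 rising and 4 falling. With total count scaling 1 rose and 7 fell, and after the length and GC correction 5 rose and 0 fell. Clec5a (MDL-1), another myeloid receptor that signals through DAP12, was at 104, 107 and 127 CPM with oxy-Hb, 163, 193 and 162 CPM with C3a and 111, 107 and 107 CPM with C3aRA. Every C3a library lay above the others, and it rose by 0.61 ± 0.11 (SE) on the log2 scale (adjusted p = 0.00954). Fcgr1, the high-affinity IgG receptor that signals through an ITAM chain, rose from 59.5 ± 5.68 to 87.5 ± 14.8 CPM (SD, n = 3; log2 fold change 0.56, adjusted p = 0.0327). Ptpn6, the phosphatase SHP-1 that opposes ITAM signals, rose from 162 ± 7.26 to 219 ± 9.37 CPM (0.43, adjusted p = 0.0226). Falls were those of Vav2, an exchange factor for small GTPases of the cytoskeleton, from 24.2 ± 1.37 to 14.1 ± 2.39 CPM (-0.78, adjusted p = 0.0114) and Nfatc2, a calcium-driven transcription factor, from 21.4 ± 2.16 to 12.6 ± 1.88 CPM (-0.77, adjusted p = 0.0184). Inppl1, the lipid phosphatase SHIP2 (-0.54, adjusted p = 0.0375), and Dgkz, which removes diacylglycerol (-0.44, adjusted p = 0.0301), fell as well.

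These calls changed when single libraries were left out and when transcript length and GC content were corrected for together. Those of Clec5a, Vav2 and Nfatc2 were lost without oxy-Hb replicate 1 (log2 fold changes 0.56, -0.83 and -0.80) or oxy-Hb replicate 2 (0.58, -0.77 and -0.68). Ptpn6 was lost without any oxy-Hb library or C3aRA replicate 2 (0.40 to 0.46). Fcgr1 was lost without any oxy-Hb or C3aRA library (0.49 to 0.63), and Inppl1 without any of these or C3a replicate 3 (-0.59 to -0.46). Without C3a replicate 2 the log2 fold change of Fcgr1 was 0.40. Dgkz was lost without oxy-Hb replicate 1 or 2, C3a replicate 3 or any C3aRA library (-0.45 to -0.38). All 7 were lost when both groups were fitted alone, and Fcgr1 and Ptpn6 also with total count scaling (0.46 and 0.34). After the length and GC correction the 4 falls were no longer called (Vav2 -0.45, Nfatc2 -0.38, Inppl1 -0.21, Dgkz -0.10), while Clec5a (0.57), Fcgr1 (0.52) and Ptpn6 (0.49) were. The count itself was 0 without oxy-Hb replicate 1 or without replicate 2, 4 without oxy-Hb replicate 3, 22 without C3a replicate 1, 17 without C3a replicate 2, 6 without C3a replicate 3, and 4, 3 and 4 without C3aRA replicates 1, 2 and 3. Over all tested genes the 558 calls became 54, 107 and 307 without oxy-Hb replicates 1, 2 and 3. In the same order they became 1638, 1395 and 444 without the C3a libraries and 322, 321 and 296 without the C3aRA libraries.

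By list, with C3a against oxy-Hb, 1 of 11 receptors that use the same adaptors changed (Clec5a, up). Their median was 0.52 (0.34 without C3a replicate 2), and the gene at 0.52 averaged 2.55 CPM, with an SE of 0.35. Of the 11, 10 were positive, beside 7098 of all 14146 tested genes. Of 9 other ITAM chains and their receptors 1 rose (Fcgr1; median 0.40, and 0.13 without that library). Of 29 downstream adaptors and PI3K genes 1 fell (Vav2; median -0.02, and -0.06 without that library), of 21 PLC gamma effectors 2 fell (Nfatc2 and Dgkz; median -0.15, and -0.05 without that library), and of 25 inhibitory receptors and phosphatases 1 rose and 1 fell (Ptpn6 and Inppl1; median -0.02, and 0.07 without that library). No call was made among 8 ligands (5 at an unadjusted p below 0.05), 11 Src and Syk family kinases (3) and 10 genes of TREM shedding and surface turnover (1). Of all 14146 tested genes 3411 had an unadjusted p below 0.05 in edgeR. The lowest p among ligands belonged to Raet1e, a ligand of the DAP10 partner NKG2D (0.89, adjusted p = 0.0552), and among kinases and their regulators to Pag1, a membrane adaptor that holds the kinase CSK (-0.59, adjusted p = 0.050). Over the 124 genes the median was 0.01, beside 0.00 for all tested genes. Pglyrp1, a TREM1 ligand picked out after its values were seen, was at 0 to 0.393 CPM and was not tested, and Siglech was at 0 in all 9 libraries.

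With C3aRA against oxy-Hb 0 of the 124 changed in edgeR's quasi-likelihood test, beside 0% of all tested genes. An unadjusted p below 0.05 was met in 10, beside 1153 of all 14146 tested genes. DESeq2 and limma-voom called 0 of the 124. All calls under other settings were higher with C3aRA. Without C3a replicate 2 there were 5, beside 475 of all 14613 genes tested in that fit. With both groups fitted alone there were 6, beside 603 of 13625. After the length and GC correction without C3a replicate 2 there were 11, beside 804 of 14613. With that correction and the replicate number as a block there were 2, beside 38 of 14146. The lowest p in each of 7 lists belonged to Lilrb4a, an inhibitory receptor (0.45, adjusted p = 0.479), Gab2, an adaptor for PI3K (0.48, adjusted p = 0.487), Clec4e, the receptor Mincle (0.25, adjusted p = 0.565), Clu, the TREM2 ligand clusterin (0.30, adjusted p = 0.605), Stim1, a calcium sensor of the endoplasmic reticulum (0.33, adjusted p = 0.605), Csk, which restrains Src kinases (-0.26, adjusted p = 0.614), and Cd300lb, a DAP12 partner (-0.21, adjusted p = 0.619). The median was 0.02, beside -0.01 for all tested genes.

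With C3a against C3aRA 12 of the 124 (9.68%) changed, beside 6.19% of all tested genes, 6 higher and 6 lower with C3a. After the length and GC correction 10 were higher and 5 lower. Clec5a was again higher (log2 fold change 0.67, adjusted p = 0.00776), as was Cd300lb, with 33.9 to 35.2 CPM under C3aRA, 39.0 to 40.7 CPM under oxy-Hb and 45.7 to 48.7 CPM under C3a (0.45, adjusted p = 0.0260), so no group overlapped another. Fcgr1 (0.67, adjusted p = 0.0142) and Fcgr4, an IgG receptor (0.70, adjusted p = 0.0365), were higher among ITAM chains and their receptors. The inhibitory receptors Cd300a (0.68, adjusted p = 0.0416) and Cd300lf (0.44, adjusted p = 0.0311) were higher and Lilrb4a lower, from 1026 ± 119 CPM with C3aRA to 632 ± 112 CPM with C3a (-0.70, adjusted p = 0.0151). Gab2 (123 ± 6.92 and 74.3 ± 19.6 CPM; -0.73, adjusted p = 0.0191), Vav2 (-0.72, adjusted p = 0.0159), Pag1 (-0.67, adjusted p = 0.0278), Inppl1 (-0.55, adjusted p = 0.0299) and Dgkz (-0.37, adjusted p = 0.0469) were lower with C3a.

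By list, 2 of 11 receptors that use the same adaptors were higher (median 0.47, and 0.56 without C3a replicate 2). The gene at 0.47 averaged 1.18 CPM, with an SE of 0.51. Of 9 ITAM chains and their receptors 2 were higher (median 0.17, and -0.01 without C3a replicate 2). Of 25 inhibitory receptors and phosphatases 2 were higher and 2 lower (median 0.11). Of 29 downstream adaptors and PI3K genes 2 were lower (median -0.09), of 21 PLC gamma effectors 1 (median -0.24) and of 11 kinases 1 (median -0.03). No call was made among 8 ligands (4 at an unadjusted p below 0.05; lowest p Hmgb1, 0.38, adjusted p = 0.0563) and 10 shedding and turnover genes (2; Aph1b, a gamma-secretase subunit, -0.56, adjusted p = 0.202). Of all 14146 tested genes 3427 had an unadjusted p below 0.05 in edgeR. The median over the 124 was 0.01, as for all tested genes.

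Calls against C3aRA again changed when single libraries were left out, as did the number of calls over all tested genes. Without C3aRA replicate 1 all 12 were lost, Clec5a (0.69) and Lilrb4a (-0.60) without that library only. Fcgr1 was lost without C3aRA replicates 1 or 2 (0.62 and 0.67), Vav2 and Gab2 without any C3aRA library (-0.77 to -0.68), and Gab2 also without C3a replicate 3 (-0.64). Without C3a replicate 2 the log2 fold change of Fcgr1 was 0.52 and that of Cd300a 0.37. Pag1, Cd300lb, Inppl1, Cd300lf, Fcgr4, Cd300a and Dgkz were lost without any C3aRA library or oxy-Hb replicate 2. Of these Cd300lb, Inppl1 and Dgkz were also lost without C3a replicate 3 (0.47, -0.53 and -0.33), Cd300lf, Cd300a, Fcgr4 and Dgkz without oxy-Hb replicate 1 (0.44, 0.68, 0.70 and -0.37), the last 3 also without oxy-Hb replicate 3, and Fcgr4 without C3a replicate 2 (0.51). Over all 9 such fits Pag1 ran from -0.82 to -0.53, Cd300lb from 0.42 to 0.48, Inppl1 from -0.68 to -0.45, Cd300lf from 0.36 to 0.49, Fcgr4 from 0.51 to 0.84, Cd300a from 0.37 to 0.84 and Dgkz from -0.44 to -0.33. With both groups fitted alone only Clec5a kept its call. After the length and GC correction Fcgr4 (0.51), Cd300a (0.79), Vav2 (-0.46), Inppl1 (-0.31) and Dgkz (-0.17) were not called, and the other 7 were. Single further losses were those of Cd300a in limma-voom (0.63), Cd300lf with total count scaling (0.42) and Dgkz with upper quartile scaling (-0.35). Leaving out oxy-Hb replicates 1, 2 and 3 in turn gave counts of 8, 5 and 10. The same for the C3a libraries gave 29, 25 and 8, and for the C3aRA libraries 0, 2 and 3. Over all tested genes the 876 calls became 560, 390 and 575 without oxy-Hb replicates 1, 2 and 3. In the same order they became 1670, 1827 and 420 without the C3a libraries and 53, 175 and 149 without the C3aRA libraries.

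**Figure D5:**
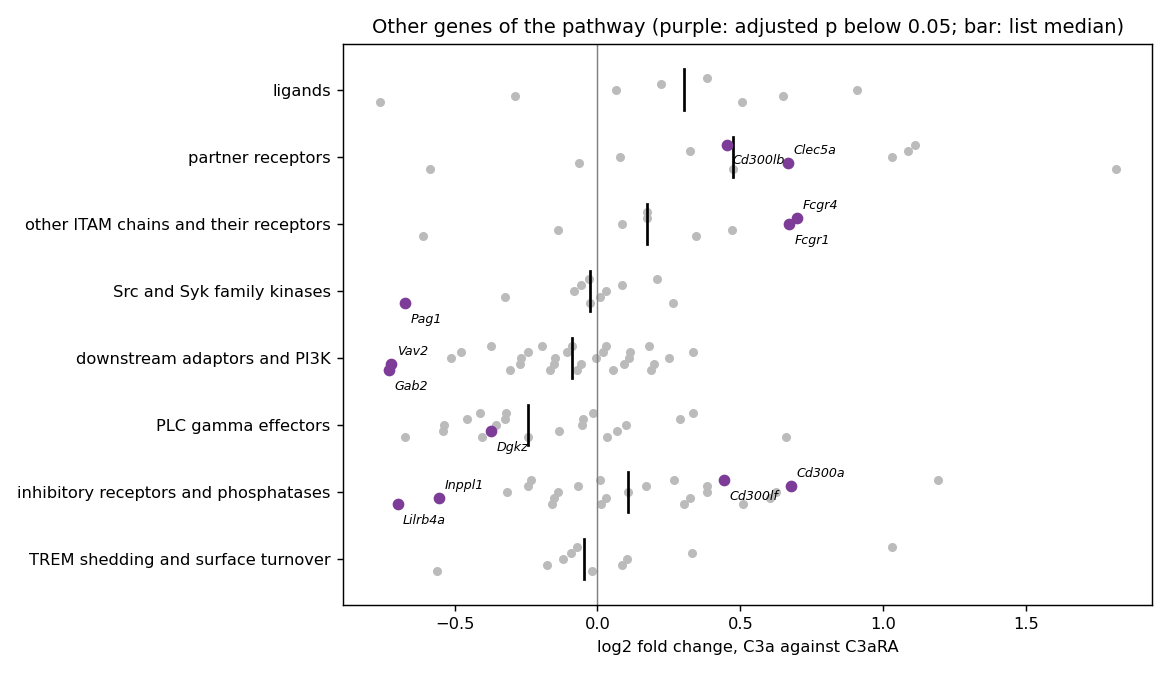
Log2 fold change of the 124 tested pathway genes for C3a against C3aRA, by list, with purple points at an adjusted p below 0.05 in edgeR and a black bar at each list's median. The 12 purple points are 6 on each side of 0, and the medians run from 0.47 in the partner receptors to -0.24 in the PLC gamma effectors.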

How the data were processed

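Raw read counts of 9 libraries came from 2 tables that the authors deposited, joined by Ensembl identifier, in which 0 oxy-Hb counts differed. For each gene the authors' deposited tables add their own log2 fold change with raw and adjusted p-values. Builds, per the submitters' processing notes, were GRCm38 and mm10. How reads were aligned, counted, assigned to strands and tested by the authors is not given in the sources used here. Without a stated strand setting, reads of a gene and an antisense partner cannot be told apart.

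The 7 genes and all lists were chosen with earlier results of these data known. Groups came from the labels. Counts were fitted with edgeR 4.0.16 (R 4.3.3), with filterByExpr (minimum count 10, 14146 genes), TMM scaling, 1 coefficient per group over 9 libraries and the robust quasi-likelihood F test. Calls are at a Benjamini-Hochberg adjusted p below 0.05 over all tested genes, and list members were not adjusted separately. SEs are from this fit. Library sizes of 12934794 to 20479002 counts set the precision. Mean chi-square per gene between replicates was 5.26 to 10.0, and 57.6 and 64.0 for C3a replicate 2, so no libraries agreed within sampling noise. The scripts were tested on simulated data.

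Named genes are the 7, every called pathway gene, the gene of lowest p (mean of at least 5 CPM) in each list without a call, the 3 genes of highest correlation with each of the 7, and markers that led their list or were at 0. Others are said to be picked later. Some list genes were not analysed here, and 1 gene of lowest p is not reported here. Alternatives were total count, upper quartile and DESeq2 scaling, no count filter or a stricter one (mean of at least 5 CPM), DESeq2 1.42.0, limma-voom (limma 3.58.1), fits of 2 groups only, a block for the replicate number, each library left out in turn, and a spline correction for transcript length and GC (known for 99.9% of tested genes). Promoters are RefSeq GRCm38.p6 entries. Transcripts are from GENCODE, where 22918 of 22935 identifiers were found.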

Additional observations from a re-analysis of the deposited data

How the results depend on the processing

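For C3a against oxy-Hb, 7 pathway genes were called; no count filter gave 14, DESeq2 18 and a fit of both groups alone 0, and leaving out 1 library gave 0 to 22. For C3aRA against oxy-Hb the 0 calls became 6 in a fit of both groups alone, 11 after the length and GC correction without C3a replicate 2, 2 with that correction and the replicate block, and 0 to 5 with 1 library left out. For C3a against C3aRA the 12 calls became 23 in DESeq2, 1 in a fit of both groups alone, 24 after the length and GC correction without C3a replicate 2, 20 with that correction and the replicate block, and 0 to 29 with 1 library left out. Calls over all tested genes moved too. For C3a against oxy-Hb they were 558 as reported, 1353 in DESeq2 and 99 in a fit of both groups alone. For C3a against C3aRA they were 876, 1521 and 118, and for C3aRA against oxy-Hb 0, 11 and 603. Fits with fewer libraries gave fewer calls in some cases and more in others, and the cause was not tested. Other scalings, a mean of at least 5 CPM and limma-voom kept every count within 1.5 times of the reported one.

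The values do not settle if samples with the same replicate number were paired. Of 9 same-numbered pairs 2 had deviations that correlated above 0.1 (r from -0.041 to 0.17), and in 9 of 18 comparisons a library was most like its own number in the other group. The 2 pairs above 0.1 were oxy-Hb and C3a replicates 2 (0.17) and 3 (0.111). With the replicate number as a block, 10, 0 and 16 pathway genes were called in the 3 comparisons, against 7, 0 and 12. Over all tested genes it was 835, 0 and 1210, against 558, 0 and 876.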
